A study of Mus musculus with 2 samples.

Results

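The genes described here are 10 genes of MHC class I antigen presentation, chosen by symbol from the 26124 genes of the count tables. They are the light chain B2m, the heavy chains H2-K1, H2-D1 and H2-Q10, the peptide transporter subunits Tap1 and Tap2, the loading factor Tapbp, the immunoproteasome subunits Psmb8 and Psmb9, and Wdfy4. Droplet-based single-cell RNA sequencing with unique molecular identifiers (UMIs, which count molecules and not reads) was run on 2 spleen suspensions enriched for dendritic cells (DCs) by removing other cells with magnetic beads. Sickle cell disease (SCD) was present in the mouse behind one of them, and the other was taken from a non-sickling littermate, called wild-type. The wild-type mouse was homozygous for Hbatm1Paz, heterozygous for Hbbtm1Tow and hemizygous for the human globin transgene Tg(HBA-HBBs)41Paz. The SCD mouse was homozygous for all 3 alleles, so both mice carried the null mouse alpha globin locus and the transgene, and both were untreated and 12 to 16 weeks old. The study describes the SCD line as being on a mixed genetic background.

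MHC class I molecules show fragments of proteins made inside a cell to CD8+ T cells. The proteasome cuts the proteins, and in immune cells Psmb8 and Psmb9 replace its standard catalytic subunits. The transporter formed by Tap1 and Tap2 moves the peptides into the endoplasmic reticulum, where Tapbp (tapasin) holds the empty heavy chain and B2m next to it. H2-K1 and H2-D1 encode the classical heavy chains, while H2-Q10 encodes a soluble class Ib heavy chain that is best known from the liver. Type 1 conventional DCs (cDC1) are the specialists of cross-presentation, the loading of class I molecules with peptides of engulfed material. Wdfy4 is required for cross-presentation of cell-bound antigen by cDC1. Type 2 conventional DCs (cDC2) mainly present to CD4+ T cells through MHC class II.

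In the mouse annotation (GENCODE release M21, GRCm38), 8 of the 10 genes lie on chromosome 17, in the MHC region. Psmb9 (chr17:34181987-34187764, minus strand), Tap1 (chr17:34187553-34197225, plus strand), Psmb8 (chr17:34197721-34201454, plus strand) and Tap2 (chr17:34203527-34216321, plus strand) are direct neighbours. Tapbp (chr17:33915899-33929292) and H2-K1 (chr17:33996017-34000347) lie on one side of them, and H2-D1 (chr17:35262730-35267499) and H2-Q10 (chr17:35470089-35474563) on the other. B2m (chr2:122147686-122153083) and Wdfy4 (chr14:32959547-33185508, up to 62 exons in a transcript) lie elsewhere. Class I heavy chains are close copies of each other, so the last 500 bases of each protein-coding transcript were searched for stretches of 91 bases, the length of the sequenced read, that also occur in another gene of the count tables. Of 1323 such stretches of H2-K1, 1 was shared, with H2-D1, H2-Q1, H2-Q6 and H2-Q7, and none of the stretches of the other 9 genes was shared. This holds for the reference sequence, and the heavy chain alleles of these mice were not analysed.

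Promoter sequences from RefSeq (GRCm38.p6, 250 bases before to 50 bases after a start) were found for 9 of the 10 genes, and Tap2 was not matched. The 3 heavy chains are shown first because they are close copies of each other that were highest in different cell types, H2-K1 and H2-D1 in mature DCs and H2-Q10 in neutrophils. Each stretch of 140 bases lies before the RefSeq start and is printed 5′ to 3′ on the strand of its gene. Capitals mark motifs that were searched on either strand. These are GGGATTCCC (the core of the kappaB site in their enhancer A) and GAAGTGAAA (their interferon response element, here as its reverse complement). The motifs do not overlap.
H2-K1, chr17:34000361-34000500, minus strand: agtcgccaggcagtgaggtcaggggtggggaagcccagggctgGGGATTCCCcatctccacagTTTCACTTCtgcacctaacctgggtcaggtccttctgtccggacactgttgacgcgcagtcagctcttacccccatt
H2-D1, chr17:35262881-35263020, plus strand: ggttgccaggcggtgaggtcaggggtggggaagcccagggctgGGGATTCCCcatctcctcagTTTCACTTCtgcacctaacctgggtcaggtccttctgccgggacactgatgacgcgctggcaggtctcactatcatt
H2-Q10, chr17:35469871-35470010, plus strand: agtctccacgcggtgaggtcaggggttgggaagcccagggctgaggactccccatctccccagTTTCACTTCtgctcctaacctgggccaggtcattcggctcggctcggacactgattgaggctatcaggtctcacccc

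Over the aligned stretches, H2-K1 and H2-D1 were identical in 90.0% of the columns, H2-K1 and H2-Q10 in 81.5%, and H2-D1 and H2-Q10 in 80.8%. The letters GGGATTCCC were found in the windows of H2-K1 and H2-D1 and on neither strand in that of H2-Q10. Counted on either strand, they were in 0.353% of the 32851 promoter windows searched. GAAGTGAAA was found in all 3 heavy chain windows and in 0.505% of all windows.

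The light chain gene and the Tap1 and Psmb9 interval are shown for comparison, the latter because both genes read outwards from it in opposite directions. In the B2m stretch capitals mark the general interferon-stimulated response element (GAAA, a pair of bases of any kind, GAAA), which 3.44% of all windows held on either strand. In the interval of 225 bases between the RefSeq starts of Psmb9 and Tap1, printed on the strand of Tap1, they mark on either strand a GC box (GGGCGG, held by 35.7% of all windows), a CCAAT box (letters CCAAT, 37.4%) and the core of a cyclic AMP response element (TGACG, 20.8%).
B2m, chr2:122147517-122147666, plus strand: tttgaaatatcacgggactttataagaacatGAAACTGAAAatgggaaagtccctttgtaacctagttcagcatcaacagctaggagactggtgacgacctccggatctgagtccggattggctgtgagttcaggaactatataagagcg
Tap1 and Psmb9, chr17:34187331-34187555, plus strand: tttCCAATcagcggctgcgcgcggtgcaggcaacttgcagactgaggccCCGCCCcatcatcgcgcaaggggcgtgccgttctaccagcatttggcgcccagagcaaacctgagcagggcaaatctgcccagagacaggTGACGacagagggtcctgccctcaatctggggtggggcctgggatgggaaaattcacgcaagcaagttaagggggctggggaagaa

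After filtering, 9423 wild-type cells with 60845405 UMIs and 10635 SCD cells with 99608356 UMIs were analysed, and 22 of their barcodes occurred in both libraries. The cells were clustered together, with none of the 10 genes among the variable genes used, and the clusters were called by class from marker genes. The classes held 166 wild-type and 224 SCD cells for cDC1, 1526 and 230 for cDC2, 574 and 81 for mature DCs, 726 and 590 for plasmacytoid DCs (pDCs), 1063 and 1346 for monocytes, 4367 and 7200 for neutrophils, 297 and 156 for red pulp macrophages, and 54 and 51 for erythroid cells. The naming markers of cDC1, Xcr1 and Clec9a, were at 602 and 373 UMIs per 1000000 UMIs of the class (CPM) in wild-type cDC1 and at 2.68 and 0.893 CPM in wild-type cDC2. The targeted Hbb-bs was at 291366 CPM in wild-type and 5511 CPM in SCD erythroid cells, whereas Hba-a1 was at 112879 and 185322 CPM there, against the null alpha globin locus that the labels give for both mice. There was 1 library per group, and without replicates none of the differences below could be tested. All intervals are 95% intervals of counting error only, and a difference between the libraries cannot be told apart from a difference between 2 animals.

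**Figure D1:**
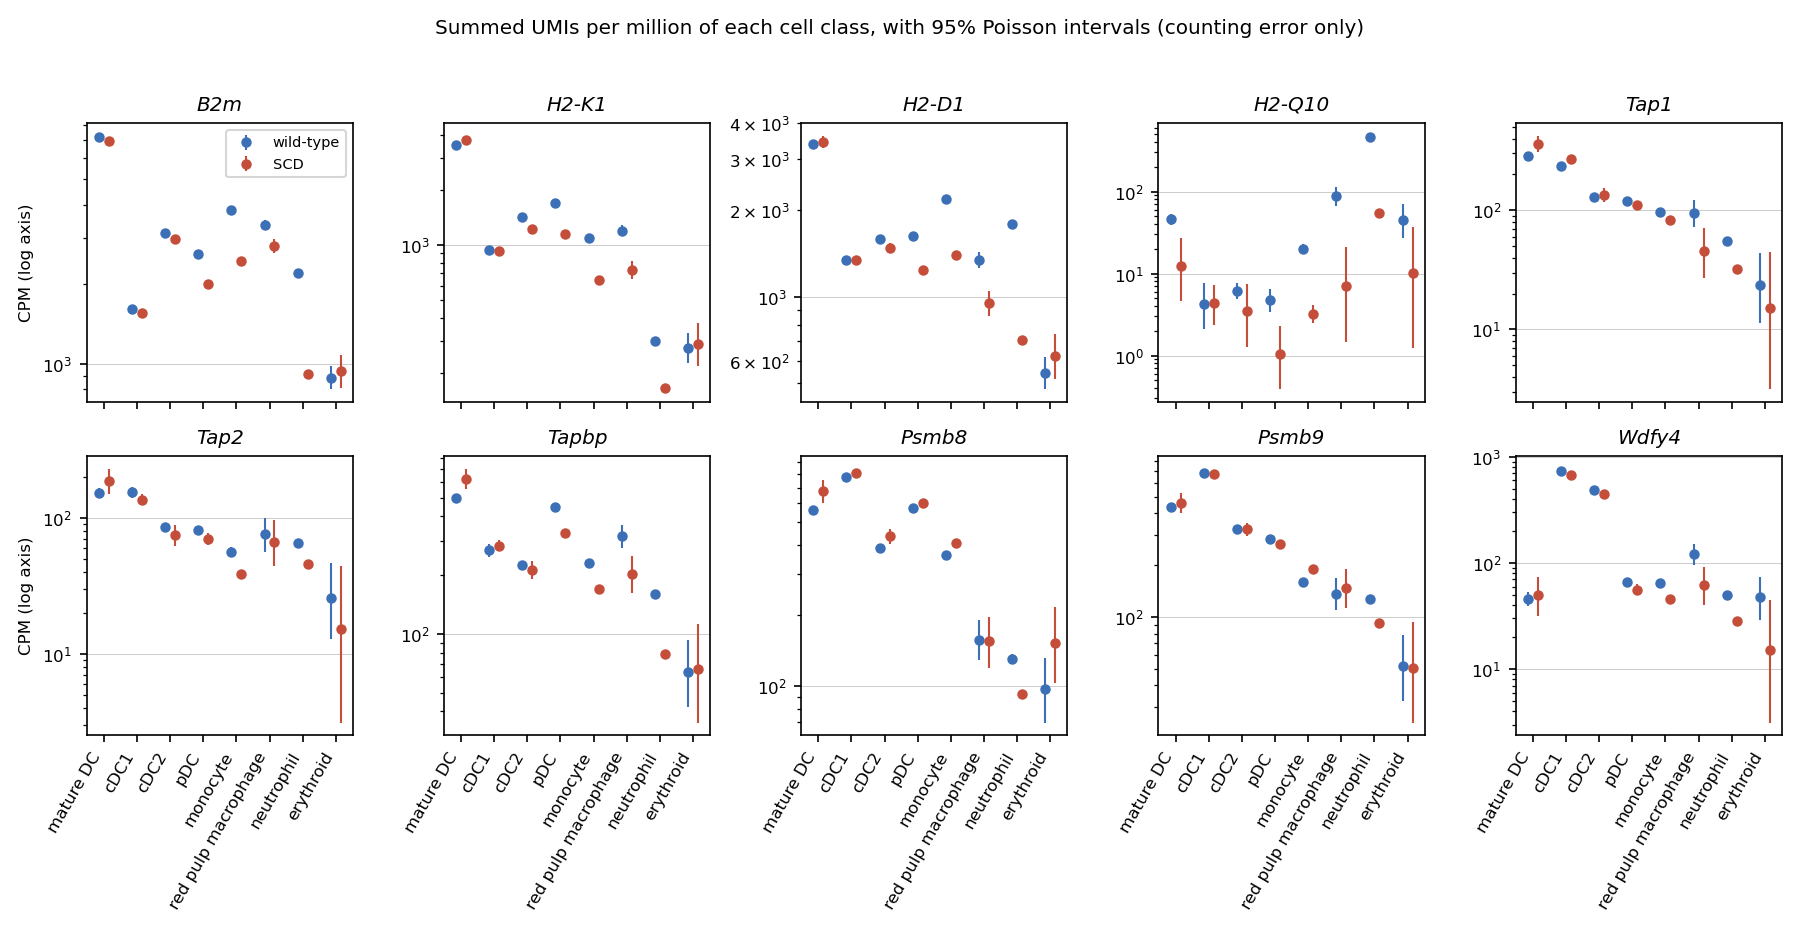
Summed UMIs of each of the 10 genes per 1000000 UMIs of the cell class (CPM, log axis) in 8 cell classes, for the wild-type library (blue) and the SCD library (red), with 95% Poisson intervals. B2m, H2-K1 and H2-D1 were highest in mature DCs, Psmb8, Psmb9 and Wdfy4 in cDC1, and H2-Q10 in neutrophils.

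Summed over classes, mature DCs, the Ccr7+ cells that have taken up the maturation program, held the highest levels of the conventional class I molecule. Parts of the classes overlapped. Monocyte cluster 11 held B2m at 5615 and 5176 CPM and H2-D1 at 3143 and 2445 CPM in its wild-type and SCD cells. The SCD cells of mature DC sub-cluster 2 held B2m at 5660 CPM and H2-D1 at 2816 CPM. B2m reached 7195 CPM (wild-type) and 6940 CPM (SCD) in mature DCs, and no other class was above 3810 CPM in either library. Monocytes (3810 and 2440 CPM), red pulp macrophages (3343 and 2788) and cDC2 (3130 and 2973) followed with overlapping ranges of the libraries, then pDCs (2590 and 1994). Below these came cDC1 (1612 and 1557), neutrophils (2210 and 914) and erythroid cells (885 and 936), whose ranges also overlapped from one to the next.

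H2-K1 was at 3536 and 3779 CPM in wild-type and SCD mature DCs. It was at 1708 and 1144 CPM in pDCs, 1419 and 1223 CPM in cDC2, and 938 and 924 CPM in cDC1. Neutrophils held 299 CPM (wild-type) and 166 CPM (SCD). The mature DC values did not overlap those of any other class, and the neutrophil range overlapped only that of erythroid cells (275 and 289 CPM).

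H2-D1 was at 3385 and 3449 CPM in mature DCs. Monocytes (2192 and 1391 CPM), cDC2 (1590 and 1473), pDCs (1628 and 1240), cDC1 (1340 in both) and neutrophils (1790 and 708) overlapped from each class to the next. The classical heavy chains therefore differed in neutrophils, where H2-D1 was within the range of DCs in the wild-type library and H2-K1 was below every DC class in both.

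H2-Q10 had another pattern. It was at 467 CPM in wild-type neutrophils (7471 UMIs) and 54.0 CPM in SCD neutrophils (3265 UMIs). It was at 4.26 and 4.32 CPM in cDC1 and at 6.17 and 3.46 CPM in cDC2, which rested on 6 to 76 UMIs per class and library. Red pulp macrophages (87.1 and 7.14 CPM), mature DCs (46.2 and 12.5) and erythroid cells (44.98 and 10.1) lay between. Monocytes (20.04 and 3.21) lay between in the wild-type library and below both cDC1 and cDC2 in the SCD library. Every one of these classes was lower in the SCD library.

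Among the transport and loading genes, Tap1 was at 283 and 363 CPM in mature DCs and at 237 and 267 CPM in cDC1. It was at 130 and 134 CPM in cDC2 and 120 and 110 CPM in pDCs, and at or below 96.5 CPM in every other of the 8 classes. Tap2 was at 152 and 187 CPM in mature DCs and at 155 and 137 CPM in cDC1, where the ranges overlapped, and at 85.7 and 75.0 CPM in cDC2. Tapbp was at 495 and 625 CPM in mature DCs, 445 and 328 CPM in pDCs, 268 and 284 CPM in cDC1 and 225 and 212 CPM in cDC2.

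Both immunoproteasome genes were highest in cDC1 and not in mature DCs. Psmb8 was at 778 and 810 CPM in wild-type and SCD cDC1, against 562 and 677 CPM in mature DCs and 577 and 600 CPM in pDCs. Psmb9 was at 689 and 678 CPM in cDC1, against 435 and 461 CPM in mature DCs. The cDC1 values of both genes, summed over the class, did not overlap those of any other class. Their sub-clusters did overlap. Psmb8 was at 744.5 CPM (642 to 859) in the SCD cells of mature DC sub-cluster 11 and at 721 and 753 CPM in the larger cDC1 sub-cluster, and Psmb9 at 504 and 524 CPM in the former and 520.1 and 426 CPM in the smaller cDC1 sub-cluster.

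Wdfy4 was highest in the conventional DCs that had not matured. It was at 733 and 680 CPM in wild-type and SCD cDC1 and at 491 and 443 CPM in cDC2. The next class in order, red pulp macrophages, held 121 and 61.9 CPM, and mature DCs held 45.7 and 49.8 CPM. Early B cells, a class of 21 wild-type and 287 SCD cells that is not compared between the libraries here, held 274 and 221 CPM.

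The question of what sets cDC1 apart from cDC2 was then asked in each library on its own. In the wild-type library, 4 of the 10 genes were past 1.5-fold higher in cDC1 and 2 were past 1.5-fold lower, beside 11.7% and 27.6% of the 3625 genes expressed there (39.3% in either direction). In the SCD library, 5 were higher and 1 was lower, beside 11.6% and 23% of the 3550 genes expressed (34.6% in either direction). The median log2 ratio over the 10 genes was 0.41 in the wild-type (0.34 to 0.48) and 0.51 in the SCD library (0.42 to 0.67), while the medians over all expressed genes were -0.20 and -0.17. Relative to those (median-of-ratios scaling), the medians of the 10 genes were 0.61 and 0.68. A log2 ratio here is that of CPM with 5 added to both values.

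The peptide-supply genes were higher in cDC1. Psmb9 had log2 ratios of 1.07 in the wild-type (0.99 to 1.15) and 1.06 in the SCD library (0.94 to 1.19), and Psmb8 of 0.996 and 0.891. Tap1 had 0.84 and 0.97, and Tap2 0.82 and 0.83. Each of these 4 genes was past 1.5-fold in both libraries, at percentiles from 91.6 (Tap2, SCD) to 94.3 (Psmb9, wild-type) among the expressed genes. Tapbp was at 0.25 and 0.41, under 1.5-fold.

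Wdfy4 had log2 ratios of 0.57 in the wild-type (0.50 to 0.64) and 0.61 in the SCD library (0.50 to 0.72), on either side of the 1.5-fold line at 0.585. With median-of-ratios scaling it was at 0.77 and 0.78, past 1.5-fold in both. The SCD value was at 0.573 with a Leiden resolution of 2 and 0.538 without the dividing cDC2 sub-cluster 10, cDC1 being left whole. Over all alternatives, the SCD value lay between 0.538 and 1.402.

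Of the class I molecule itself, only the light chain B2m was past 1.5-fold lower in cDC1 in both libraries. Its log2 ratios were -0.96 in the wild-type (-1.01 to -0.91) and -0.93 in the SCD library (-0.99 to -0.87). H2-K1 was at -0.60 and -0.40, and at -0.40 and -0.24 with median-of-ratios scaling, and its 1.5-fold call in the wild-type library was lost with 8 alternatives. H2-D1 was at -0.25 and -0.14, the latter turning to 0.029 with that scaling. H2-Q10 was below the level taken as expressed in both cell types, and its intervals included 0.

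**Figure D2:**
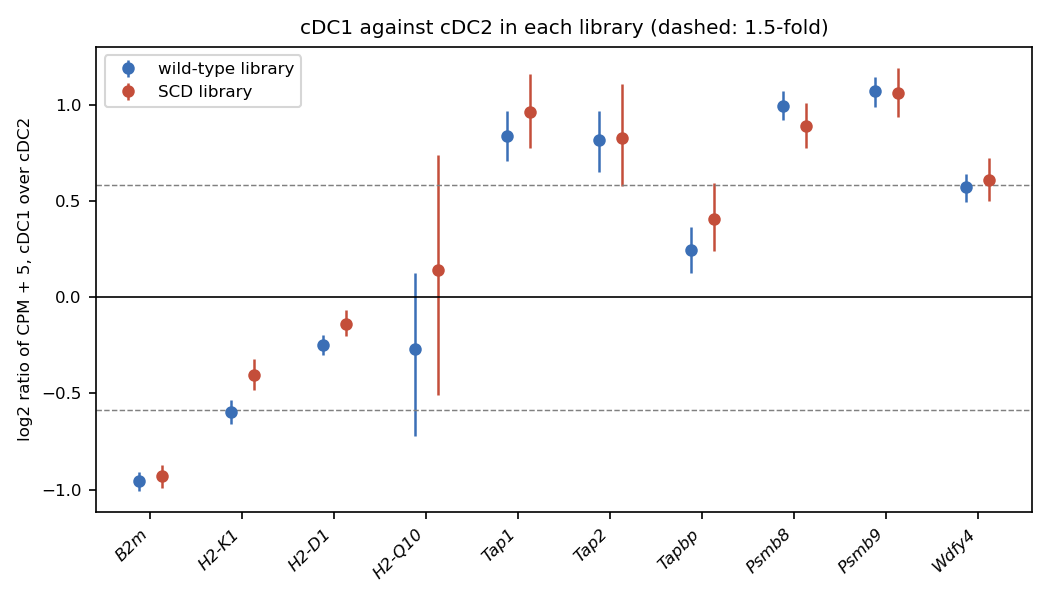
Log2 ratio of cDC1 over cDC2 (CPM with 5 added) for each of the 10 genes in the wild-type (blue) and SCD (red) library, with 95% intervals of counting error, and dashed lines at 1.5-fold. Tap1, Tap2, Psmb8 and Psmb9 lay above the upper line and B2m below the lower line in both libraries.

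Other genes of the pathway were counted from lists of which none of the 10 genes is a member. Of the peptide supply and loading list, 12 of 14 genes were expressed in the wild-type comparison, with a median log2 ratio of 0.46. Past 1.5-fold, 4 of them were higher (Pdia3, Psme1, Calr and Hspa5) and 1 was lower (Psme2b). In the SCD library 11 were expressed, the same 4 genes were higher and none was lower, with a median of 0.44. Pdia3, the disulfide isomerase of the loading complex, was at 258 CPM in wild-type cDC2 and 614 CPM in wild-type cDC1 (1.24), with a ratio of 1.31 in the SCD library. Psme1, a subunit of the proteasome activator PA28, was at 469 and 810 CPM (0.78), and at 0.89 in the SCD library. Psmb10, the third immunoproteasome subunit, was at 105 CPM in cDC2 and 97.5 CPM in cDC1 (-0.11), and at 0.05 in the SCD library. Of the standard catalytic subunits, Psmb5, Psmb6 and Psmb7 were at 0.54, 0.26 and 0.46 in the wild-type library. Psmb8 and Psmb9 were thus at larger differences than the subunits they replace, and Psmb10 was not.

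The other heavy chains had a median of -0.40 over 7 expressed genes in the wild-type library, with 1 higher (Cd1d1, which presents lipids, at 1.34) and 2 lower (H2-M2 and H2-M3) past 1.5-fold, and -0.37 over 4 genes in the SCD library, with none higher and 2 lower (H2-Q4 and H2-M3). H2-M2 was the lowest of the list in the wild-type library, at 843 UMIs in cDC2 and 4 in cDC1 (68.4 and 1.55 CPM, a log2 ratio of -3.49). It was at 1000 CPM in wild-type mature DCs, the mature DC markers (10 of 10 detected) summed to 796 CPM in wild-type cDC2 and 168 CPM in wild-type cDC1, and their part was not tested. Of the regulators, 1 of 7 was higher and 3 (Irf1, Rfx5 and Nfkb1) were lower in the wild-type library, with a median of -0.29. The transcription factor Irf8, on which cDC1 depend, was at 16.6 CPM in cDC2 and 2165 CPM in cDC1 (6.65), and Nfkb1 was at 537 and 200 CPM (-1.40). In the SCD library Irf8 of 6 regulators was higher and 3 (Irf1, Nfkb1 and Rela) were lower, with a median of -0.46.

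The cross-presentation list other than Wdfy4 had 6 of 16 expressed genes higher and 3 lower in the wild-type library (median 0.37), and 5 and 3 of 16 in the SCD library (median 0.25). Its highest genes, Xcr1, Clec9a and Tlr3, were naming markers of cDC1, as was Batf3, and are no finding. All of these are in the counts and medians of the list, which are therefore no finding about cDC1 either. Cybb, the catalytic subunit of the phagocyte oxidase, was the lowest of the list, at 320 CPM in cDC2 and 25.9 CPM in cDC1 (-3.39), and at -2.34 in the SCD library. The class II genes had medians of -0.01 over 7 genes and 0.06 over 7, with 1 higher (H2-DMb1, a subunit of the class II peptide exchanger) and none lower in each library. The interferon-stimulated list had 3 of 4 expressed genes higher (Cxcl9, Irf7 and Bst2) and 1 lower in the wild-type library, and 2 of 3 higher (Cxcl9 and Bst2) and 1 lower in the SCD library, where Ifi27l2a was at 500 CPM in cDC2 and 254 CPM in cDC1 (-0.96).

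The 10 genes also varied within cDC1, which fell into 2 sub-clusters. The larger, number 6, held 119 wild-type and 161 SCD cells, with Xcr1 at 801 and 884 CPM. The smaller, number 13, held 47 and 63 cells, with Xcr1 at 181 and 105 CPM and the cell cycle gene Mki67 at 80.8 and 504 CPM. H2-K1 was at 1145 and 1085 CPM in sub-cluster 6 and at 498 and 573 CPM in sub-cluster 13. Wdfy4 was at 806 and 825 CPM in the former and at 578 and 362 CPM in the latter. Psmb8 had the reverse order, at 721 and 753 CPM in sub-cluster 6 and 898 and 933 CPM in sub-cluster 13. In sub-cluster 6, the log2 ratios of the SCD over the wild-type library lay between -0.16 (H2-Q10) and 0.21 (Tap1). In sub-cluster 13, with too few wild-type cells for a ratio, Tap2 was at 148 and 84.6 CPM, lower in the SCD library as Wdfy4 was.

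Within cDC2, sub-cluster 5 (258 wild-type and 22 SCD cells) had the highest Cd83, a maturation marker, at 636 and 776 CPM. It held B2m at 3822 and 3783 CPM, H2-K1 at 1906 and 1611 CPM and Tap1 at 195 and 185 CPM. In the largest wild-type sub-cluster, number 0 (653 cells), B2m was at 3081 CPM, H2-K1 at 1504 CPM and Tap1 at 131 CPM. Wdfy4 was at 530 CPM in sub-cluster 0 and at 432 CPM in the wild-type cells of sub-cluster 5. Most SCD cDC2 (179 of 230 cells) were in sub-cluster 9, which held 19 wild-type cells, so that the cDC2 of the 2 libraries were mostly in different sub-clusters.

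Shares of cells with a UMI were compared after every cell had been thinned to 1000 UMIs. A Wdfy4 UMI was then found in 43.6% of wild-type cDC1 (35.9 to 51.6) and 44.1% of SCD cDC1 (37.5 to 50.9), with 1 and 2 shallower cells left out. In cDC2 the shares were 36.7% (34.3 to 39.2) and 27.4% (21.7 to 33.6). In neutrophils, the background class, they were 6.11% and 3.76%, with 45 and 12 shallower cells left out. Mature DCs, at 4.20% and 3.75%, were at or below that background, and early B cells of the SCD library were at 19.9% (15.5 to 25.04). Without thinning, 97.0% and 94.2% of cDC1 and 15.8% and 20.3% of neutrophils held a Wdfy4 UMI, at median depths of 15510.5 and 15010 UMIs in cDC1 and 2454 and 6958.5 in neutrophils.

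A Tap1 UMI was found in 16.4% of thinned wild-type cDC1 (11.1 to 22.9) and 25.2% of SCD cDC1 (19.7 to 31.5), against 6.36% and 4.22% of neutrophils. For H2-Q10 the order of classes was turned round, since 42.4% of neutrophils held a UMI of it in the wild-type (40.9 to 43.9) and 10.3% in the SCD library (9.63 to 11.1). Of 165 thinned wild-type cDC1, none held an H2-Q10 UMI, which allows a share of up to 1.82% (3 of 165 cells) at this thinned depth, and 1 of 222 SCD cDC1 did. Without thinning, 6.63% and 5.36% of cDC1 held one.

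**Figure D3:**
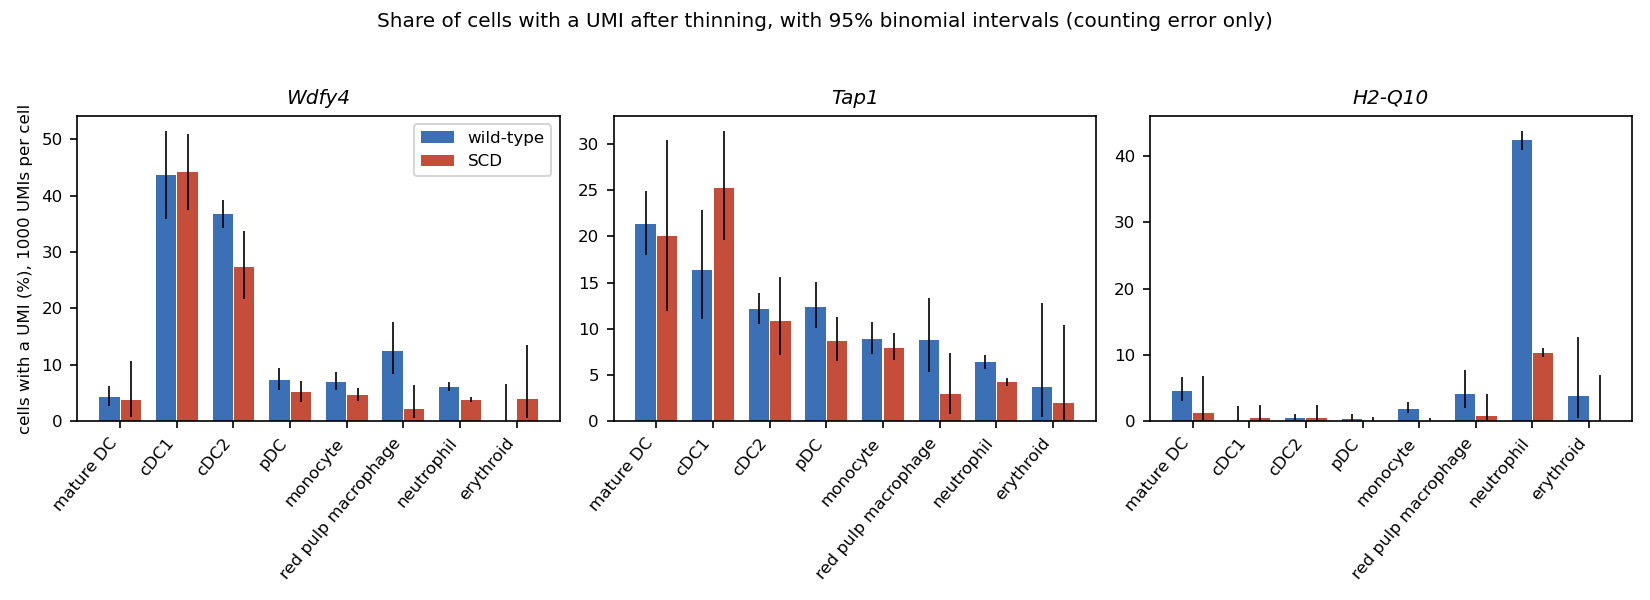
Share of cells (%) with a UMI of Wdfy4, Tap1 or H2-Q10 in 8 cell classes after thinning each cell to 1000 UMIs, for the wild-type (blue) and SCD (red) library, with exact (Clopper-Pearson) 95% binomial intervals. Wdfy4 was found in 27.4% to 44.1% of conventional DCs that had not matured, and H2-Q10 in 42.4% of wild-type and 10.3% of SCD neutrophils.

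The comparison of the SCD with the wild-type library asked whether the class I genes differed under chronic hemolysis within a cell type. In cDC1, none of the 10 genes was past 1.5-fold in either direction, beside 2.96% of the 3004 expressed genes higher and 1.66% lower (4.63% in either direction). The median log2 ratio over the 10 genes was -0.01 (-0.06 to 0.03) and that of all expressed genes -0.02. H2-D1 was at 1340 CPM in both libraries, and the largest differences were those of Tap1 (0.17, 0.03 to 0.31) and Tap2 (-0.17, -0.36 to 0.02).

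In cDC2, none was past 1.5-fold, beside 0.905% of 3425 expressed genes higher and 1.46% lower (2.36% in either direction), and the median was -0.10 (-0.15 to -0.05) against -0.04 for all expressed genes. H2-K1 was at -0.21 (-0.28 to -0.15) and Psmb8 at 0.16 (0.05 to 0.27). Called doublets, 1 of them among the 230 SCD cDC2, were then removed and the cells clustered and named anew. This left 33 SCD cells with the name cDC2, and B2m was at 0.18 in place of -0.07. H2-K1 turned to 0.095 and H2-D1 to 0.063. Over the alternatives, Wdfy4 went down to -0.762 and H2-Q10, below the level taken as expressed, to -1.022, both past 1.5-fold lower. The neutrophil markers summed to 817 and 4709 CPM in cDC2 (12 of 12 detected in both libraries), and their part was not tested. Cd74, the class II invariant chain and the most abundant class II gene, was at 21485 and 18626 CPM in cDC2.

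In mature DCs, H2-Q10 alone was past 1.5-fold lower (46.2 and 12.5 CPM, 166 and 6 UMIs, a log2 ratio of -1.55), beside 11.2% of 3262 expressed genes, and none was higher, beside 8.4% (19.6% in either direction). Tap1, Tapbp, Tap2 and Psmb8 had log2 ratios of 0.35, 0.33, 0.29 and 0.27. H2-Q10 was below the level taken as expressed (50 CPM and 20 UMIs in a sum compared), and its call was lost with no upper limit on genes per cell (-0.302) and with total count normalization before clustering (-0.235), and its direction turned with a Leiden resolution of 2 (0.023). The sums over mature DCs mixed 2 main sub-clusters in unlike shares. Sub-cluster 11, with 117 wild-type and 37 SCD cells, held Tap1 at 390 and 500 CPM and Tapbp at 629 and 819 CPM, while sub-cluster 2, with 446 and 39 cells, held Tap1 at 245 and 204 CPM and Tapbp at 440 and 369 CPM. The neutrophil markers, 12 of 12 detected in mature DCs of both libraries, summed to 6371 CPM (wild-type) and 14772 CPM (SCD), and their part in the H2-Q10 values was not tested.

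In pDCs, 1 of the 10 genes was past 1.5-fold lower, beside 2.69% of 3567 expressed genes, and none was higher, beside 4.32% (7.01% in either direction). This was H2-Q10, below the level taken as expressed, on 39 and 6 UMIs (-0.692), which was within 1.5-fold with at least 1000 genes per cell (-0.525), with no upper limit on genes (-0.545) and with a pseudocount of 20 CPM (-0.235). H2-K1, at 1708 and 1144 CPM, lay just inside 1.5-fold (-0.58, -0.62 to -0.53), and Tapbp at -0.44, H2-D1 at -0.39 and B2m at -0.38. Over the alternatives these ratios kept their sign but shrank to as little as -0.222 (H2-K1), -0.164 (Tapbp), -0.158 (H2-D1) and -0.127 (B2m). Of the 726 wild-type pDCs, 643 were in sub-cluster 1, where H2-K1 was at 1805 CPM. The SCD pDCs were mainly in sub-cluster 4 (344 cells, H2-K1 at 1595 CPM) and sub-cluster 8 (206 cells, H2-K1 at 654 CPM), which held 8 and 12 wild-type cells, so for most pDCs no value within a sub-cluster of both libraries was available. The conventional DC markers summed to 12796 and 6566 CPM in pDCs (11 of 11 detected in both libraries) and the neutrophil markers to 667 and 3980 CPM (12 of 12), and their part was not tested. In sub-cluster 8 the cell cycle gene Mki67 was at 418 CPM and the pDC marker Siglech at 1628 CPM, against 13.8 and 3756 CPM in sub-cluster 4. In the small sub-cluster 16 (43 and 35 cells) H2-K1 was at 558 and 521 CPM. Siglech was at 238 and 302 CPM there, so the name pDC is uncertain for these cells.

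In neutrophils, all 10 genes were lower in the SCD library, 7 of them past 1.5-fold, beside 37.6% of the 2488 genes expressed there, and none was higher past 1.5-fold, beside 7.88% (45.5% in either direction). The median log2 ratio was -0.78 (-0.84 to -0.74), against -0.38 for all expressed genes, and -0.40 with median-of-ratios scaling, where 4 genes (B2m, H2-D1, H2-Q10 and Tapbp) were past 1.5-fold lower. Tap1 (-0.524) and Wdfy4 (-0.534) were also within 1.5-fold with a pseudocount of 20 CPM. H2-Q10 was at -2.999 (-3.06 to -2.95), below all but 0.523% of the expressed genes. H2-D1 was at 1790 and 708 CPM (-1.33), B2m at 2210 and 914 CPM (-1.27), Tapbp at 160 and 78.9 CPM (-0.98) and H2-K1 at 299 and 166 CPM (-0.83). Psmb9 (-0.44), Tap2 (-0.48) and Psmb8 (-0.49) were nearest to the median of all expressed genes.

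B2m, H2-K1 and H2-D1 were within 1.5-fold inside each neutrophil cluster with at least 50 cells of both libraries. Cluster 0, led by genes of mature neutrophils such as Il1b (3606 and 3779 CPM) and Csf3r (3354 and 3411 CPM), contained 3655 neutrophils out of 4367 in the wild-type library and 490 out of 7200 in the SCD library. Its wild-type and SCD cells held B2m at 3184 and 3325 CPM, H2-K1 at 402 and 386 CPM, and H2-D1 at 2739 and 2515 CPM. H2-Q10 was at 811 CPM (793 to 830) and 686 CPM (636 to 738) there, a log2 ratio of -0.24. Of the peptide-supply genes, Psmb8, Psmb9 and Tap1 were higher in the SCD cells of cluster 0 and Tap2 was at 0.13 (-0.20 to 0.40), with Psmb8 at 168 and 267 CPM (0.66, 0.46 to 0.84), Psmb9 at 160.0 and 230 CPM (0.51, 0.31 to 0.69) and Tap1 at 75.5 and 100.2 CPM (0.39, 0.06 to 0.68), opposite to their direction over all neutrophils. Granule, precursor and cell cycle genes were also higher in the SCD cells of cluster 0, Camp at 62.3 and 699 CPM, Ltf at 28.3 and 200.3 CPM, Elane at 3.85 and 63.8 CPM and Mki67 at 6.57 and 32.4 CPM, and their part was not tested. In cluster 7, with 67 and 1057 cells, Psmb8 was at -0.48 (-0.87 to -0.04), Psmb9 at -0.35, Tap2 at -0.49 and Tap1 at -0.09. In cluster 8, rich in the granule gene Ltf (14998 and 13028 CPM), H2-Q10 was at 2.04 and 1.29 CPM (3 and 13 UMIs), B2m at 914 and 792 CPM and H2-D1 at 373 and 359 CPM.

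Over the 7 neutrophil clusters with at least 50 cells of both libraries, H2-Q10 ran from 2.04 to 811 CPM in the wild-type and from 1.29 to 686 CPM in the SCD cells. Its log2 ratio within a cluster lay between -0.82 and 0.33 with a median of -0.24, and the -0.82 was in cluster 5, with 12 and 29 UMIs. That of B2m lay between -0.35 and 0.06, that of H2-D1 between -0.12 and 0.15 and that of H2-K1 between -0.27 and -0.04. Of the 70 pairs of a gene and a cluster, 2 were past 1.5-fold lower (H2-Q10 in cluster 5 and Wdfy4 in cluster 7) and 1 was past 1.5-fold higher (Psmb8 in cluster 0) in the SCD library, beside 2.6% lower and 2.79% higher of the 14662 pairs of an expressed gene and a cluster. The H2-Q10 pair was below the level taken as expressed, which 53 of the 70 pairs reached. Clusters were made from other genes of the same cells, so this is a description of how the cells were distributed.

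**Figure D4:**
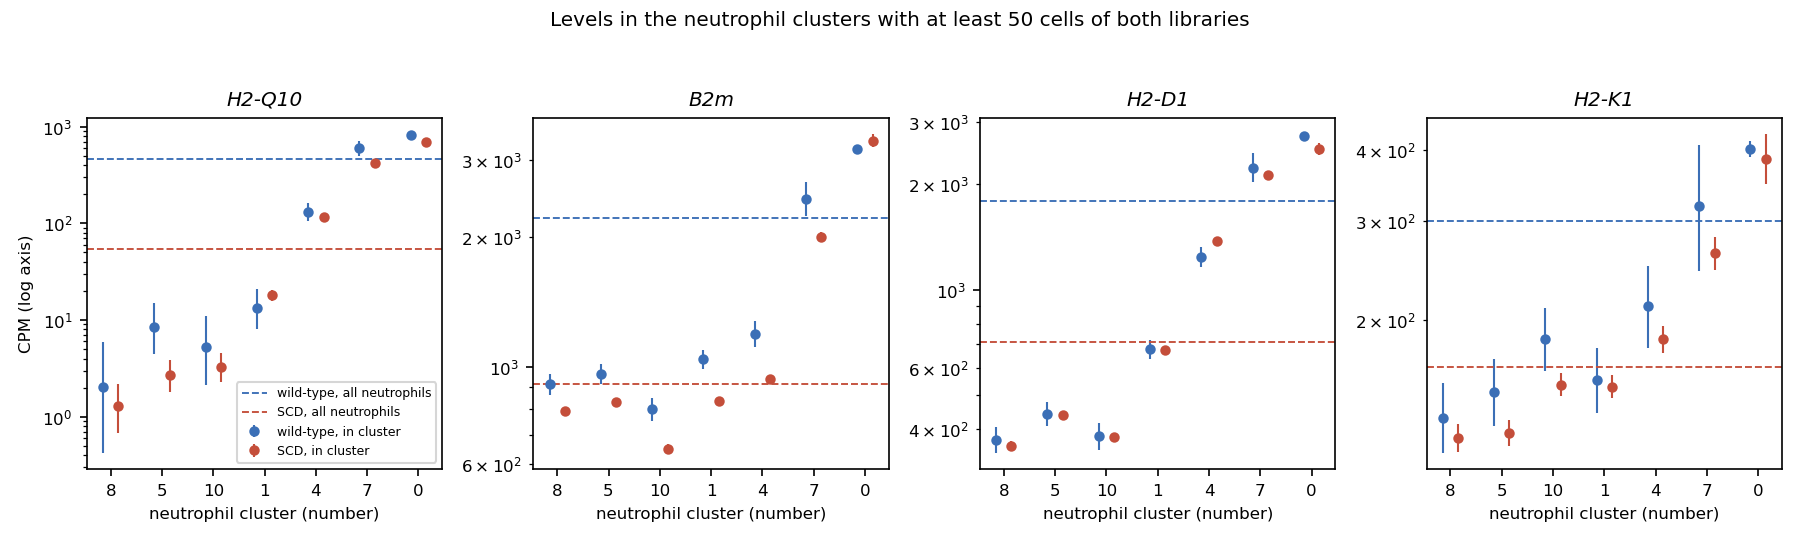
H2-Q10, B2m, H2-D1 and H2-K1 (CPM, log axis) in the 7 neutrophil clusters with at least 50 cells of each library, ordered by H2-Q10 in the SCD library, with 95% Poisson intervals, for wild-type (blue) and SCD (red) cells. Dashed lines give the level over all neutrophils of each library, which differ more than the values within most clusters.

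In monocytes, 4 of the 10 genes were past 1.5-fold lower, beside 15.8% of 3449 expressed genes, and none was higher, beside 7.22% (23% in either direction). With median-of-ratios scaling 2 genes, H2-K1 and H2-Q10, were past 1.5-fold lower. The median was -0.48 (-0.57 to -0.42) against -0.09 for all expressed genes. B2m was at 3810 and 2440 CPM (-0.64), H2-D1 at 2192 and 1391 CPM (-0.66), H2-K1 at 1087 and 646 CPM (-0.75) and H2-Q10, below the level taken as expressed, at 20.04 and 3.21 CPM (-1.61). The neutrophil markers, 12 of 12 detected, summed to 4232 and 8128 CPM in monocytes, and their part in the H2-Q10 values was not tested. The immunoproteasome genes were above 0, Psmb8 at 0.17 (0.12 to 0.23) and Psmb9 at 0.25 (0.17 to 0.34).

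Within the 2 monocyte clusters with at least 50 cells of both libraries, the ratios of B2m, H2-K1 and H2-D1 were smaller. B2m was at 3152 and 2692 CPM in cluster 3 (-0.23) and at 5615 and 5176 CPM in cluster 11 (-0.12). H2-K1 was at -0.27 and -0.21 and H2-D1 at -0.28 and -0.36. Other genes also differed within cluster 3, the monocyte genes Ly6c2 (1127 and 1786 CPM) and Ace (142 and 57.5 CPM) and the cell cycle gene Mki67 (6.77 and 41.3 CPM), and their part was not tested. Cluster 11 contained 434 wild-type and 54 SCD monocytes, and the dividing cluster 14 held 43 and 362, with B2m at 2006 and 1889 CPM. H2-Q10 was at 16.4 and 3.64 CPM in cluster 3 and had 93 and 0 UMIs in cluster 11. Psmb8 and Psmb9 were at 0.11 and 0.19 in cluster 3 and at -0.19 (-0.49 to 0.07) and -0.31 (-0.78 to 0.08) in cluster 11.

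Conventional DC markers, among which are class II genes, were at unlike levels in the monocytes of the libraries. These markers, 11 of 11 detected in both libraries, summed to 2976 CPM in wild-type and 743 CPM in SCD monocytes, with Cd74 at 1996 and 443 CPM. Cd74 was at 3493 and 2986 CPM in cluster 11 and 1468 and 555 CPM in cluster 3, and whether it came from RNA of DCs was not tested. If all of this Cd74 came from cDC2 (9.29% and 2.38% of the UMIs), subtracting that share left a median over the 10 genes of -0.35, with B2m at -0.570, within 1.5-fold, and Wdfy4 turned from -0.456 to 0.760. In neutrophils the same markers summed to 434 and 118 CPM, and Cd74 corresponded to 0.805% and 0.284% of the UMIs. That share brought 0.0496 CPM of the 467 CPM of H2-Q10 and 25.2 CPM of the 2210 CPM of B2m in wild-type neutrophils. For Wdfy4 in wild-type monocytes it brought 45.6 of 64.2 CPM.

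In red pulp macrophages, the iron-recycling macrophages of the spleen, 5 genes were past 1.5-fold lower, beside 15.9% of 3861 expressed genes, and none was higher, beside 10.9% (26.7% in either direction). With median-of-ratios scaling 4 were, Tapbp being within 1.5-fold, and with at least 1000 genes per cell H2-K1 (-0.523) and Tapbp (-0.511) were within it. The median was -0.56 (-0.69 to -0.34) against -0.05. H2-K1 was at 1199 and 731 CPM (-0.71), Tapbp at 316 and 202 CPM (-0.63) and B2m at 3343 and 2788 CPM (-0.26). H2-Q10 rested on 57 and 3 UMIs, Tap1 on 62 and 19 and Wdfy4 on 79 and 26. The neutrophil markers summed to 15286 and 10842 CPM and the conventional DC markers to 7525 and 1029 CPM in these cells, 12 of 12 and 9 and 7 of 11 of them being detected, and their part was not tested. The class had a median of 1351 and 1543.5 UMIs per cell, the lowest of the 8 classes.

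In the 54 and 51 erythroid cells, 1 of the 10 genes was past 1.5-fold higher, beside 57.9% of 1610 expressed genes, and 3 were lower, beside 7.83% (65.7% in either direction), and the median over all expressed genes was 0.72. The gene above was Psmb8, at 97.1 and 152 CPM on 41 and 30 UMIs, and its direction turned with 4 alternatives (no upper limit on genes per cell, called doublets removed, Leiden resolution 2 and median-of-ratios scaling). The 3 genes below were H2-Q10, Tap2 and Wdfy4, which had 2 or 3 UMIs in the SCD cells and were all below the level taken as expressed, and Tap2 and Wdfy4 also turned, each with 1 alternative. With median-of-ratios scaling 8 of the 10 genes were past 1.5-fold lower and none was higher. B2m was at 885 and 936 CPM (0.08, -0.18 to 0.32), and it was below 0 in 7 of 10 alternatives, down to -0.643 with median-of-ratios scaling. In these cells the conventional DC markers summed to 6086 and 187 CPM (10 and 7 of 11 detected) and the neutrophil markers to 6238 and 15840 CPM (11 and 12 of 12), and their part was not tested.

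**Figure D5:**
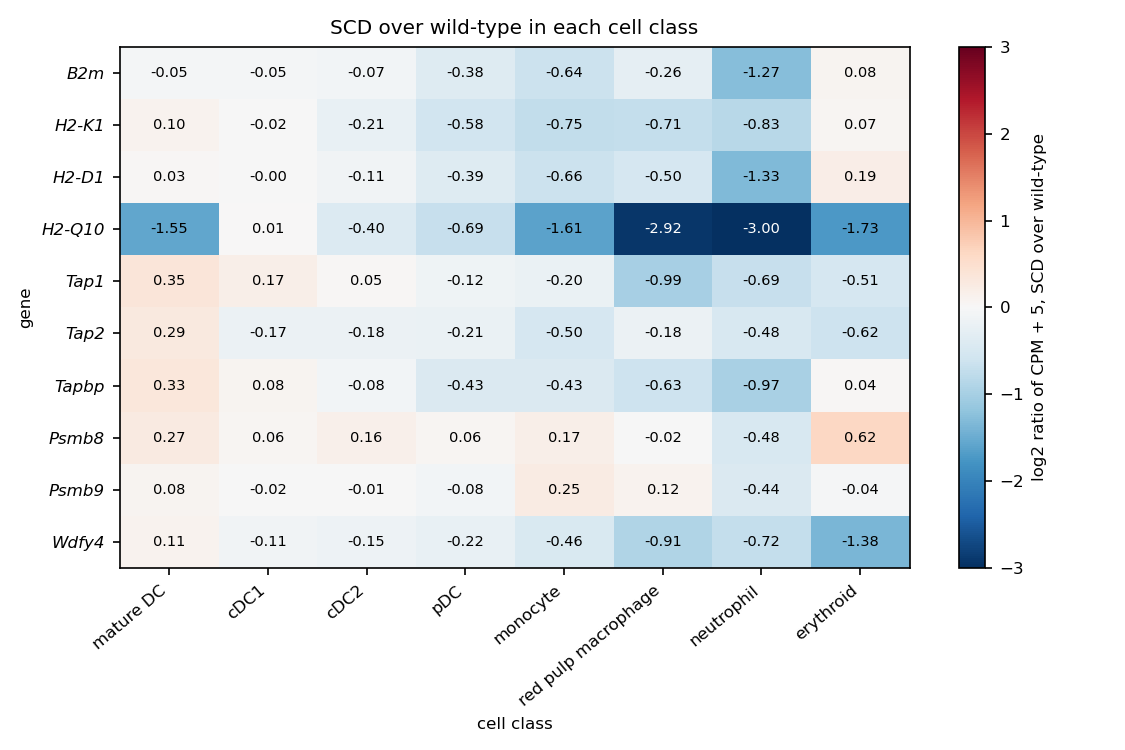
Log2 ratio of the SCD over the wild-type library (CPM with 5 added, colour and printed value) for the 10 genes in 8 cell classes. The values lay between -0.17 and 0.17 in cDC1 and between -2.999 and -0.44 in neutrophils. H2-Q10 was below -0.6 in every class except the conventional DCs that had not matured. It reached the level taken as expressed only in neutrophils and red pulp macrophages.

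Other genes of the pathway were compared in the same way. In neutrophils, Irf1, an activator of class I genes in the interferon response, was at 151 and 37.8 CPM (-1.86). All 4 expressed interferon-stimulated genes (Isg15, Oasl2, Rsad2 and Ifi27l2a) were lower (median -1.64), with Isg15 at 128 and 26.3 CPM (-2.09). These are values over all neutrophils, where 37.6% of the expressed genes were lower and the libraries had 83.7% and 6.81% of their cells in cluster 0, and the listed genes were not compared within clusters. Of the 9 expressed genes of peptide supply and loading, 1 was lower (Hspa5, a chaperone of the endoplasmic reticulum, at -0.87) and none was higher past 1.5-fold, with a median of -0.02. Its highest were Psmb6 at 48.9 and 69.6 CPM (0.47) and Calr, calreticulin of the loading complex, at 68.3 and 82.5 CPM (0.26). The 4 expressed class II genes were all lower (median -1.48), and the snare protein gene Snap23 was at 306 and 86.9 CPM (-1.76).

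In monocytes, 1 of 12 expressed peptide supply genes was lower (Psme2b) and none higher (median -0.04), while 4 of 6 class II genes (Cd74, H2-Aa, H2-Ab1 and H2-Eb1, median -2.07) were lower. H2-Aa, a class II alpha chain, was at 536 and 110 CPM (-2.24). In cDC1, no gene of the peptide supply list was past 1.5-fold in either direction (11 expressed, median -0.20), and none of the 5 regulators was. Among the listed genes taken as expressed in cDC1, the interferon-inducible chemokine Cxcl9 was the lowest, at 431 and 103 CPM (-2.02). The highest of them was Cybb, at 25.9 and 67.0 CPM (1.22). The neutrophil markers summed to 571 and 3686 CPM in cDC1, 10 and 12 of 12 being detected, Cybb was at 1011 and 1804 CPM in neutrophils, and their part in this value was not tested. In cDC2, 1 of 12 peptide supply genes was lower (Psme2b, 64.7 and 40.4 CPM, -0.62) and none of the 6 regulators was past 1.5-fold. Psme2b is a close copy of Psme2, so its count is uncertain.

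In mature DCs, 1 of 13 expressed peptide supply genes was higher and none lower (median 0.20), and 2 of 8 regulators were higher, Irf8 at 214 and 365 CPM (0.76) and Irf1 at 384 and 633 CPM (0.71). Of 6 interferon-stimulated genes 3 were lower, Gbp2 at 133 and 62.3 CPM (-1.04) being the lowest, and 1 was higher, Bst2 at 141 and 255 CPM (0.84). In pDCs, none of the 11 peptide supply genes or of the 6 regulators was past 1.5-fold, whereas 5 of 7 class II genes were lower (median -0.91). The class Ib heavy chain H2-Q6 was at 78.6 and 34.0 CPM in pDCs (-1.10). In red pulp macrophages all 7 class II genes were lower (median -2.75), with Cd74 at 4951 and 714 CPM, while 1 of 13 peptide supply genes was higher and 1 was lower.

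The genes nearest in pattern were sought by the Pearson correlation of log2 CPM (with 5 added) over 16 sums of a class and a library, as a description, since the sums share 2 libraries and their depth. Among 6232 genes, Psmb9 was the third nearest to Tap1 (0.95), and Tap1 the second nearest to Psmb9, after Got2. For Psmb8 they were Sub1, the proteasome activator subunit Psme1 and Rpl17 (0.95 to 0.96). For Wdfy4 they were H2-Ob, a class II gene, Pak1 and Gm6377 (0.93 to 0.94). For H2-Q10, Nlrp12 was the second nearest (0.94) and Cxcr2, the chemokine receptor of mature neutrophils and a naming marker, the third (0.94). Between members, B2m and H2-D1 were at 0.91 and H2-K1 and Tapbp at 0.93.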

How the data were processed

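The members and the gene lists were chosen with earlier results of these data known. The authors deposited whole-number UMI counts for each gene and barcode, made with Cell Ranger 4.0.0 and not normalized (the labels list the build GRCm38.p6, and the annotation is not given in the sources used here). The submitters' notes also list Seurat 3.2.3 and Scanpy 1.6.0. The files held 10845 wild-type and 13447 SCD barcodes. Cells with 500 to 5000 genes, under 15% mitochondrial and under 30% ribosomal UMIs were kept (86.9% and 79.1%), with a median of 4884 and 8282 UMIs. No authors' cell annotation was used. Size factors came from scran 1.30.0 in R 4.3.3, and clusters from scanpy 1.11.5 with leidenalg 0.10.2 (2000 variable genes without the 10 genes, 30 components, 15 neighbours, resolution 1, no integration of the libraries), giving 26 clusters and, within DCs, 19 sub-clusters. Clusters were named from marker lists. Of these, 2 clusters and 4 DC sub-clusters stayed unnamed, among them 235 wild-type and 122 SCD cells nearest to cDC2, so shares and levels rest on rebuilt names. Scrublet, run per library, called 3.93% and 2.82% of kept cells doublets, which were kept in the main values.

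UMIs were summed per class and library and divided by the class total (CPM). Ratios are log2 of CPM with 5 added, and a gene was called past 1.5-fold. Genes of at least 50 CPM and 20 UMIs in a sum compared were taken as expressed, and H2-Q10 (in DCs and monocytes), Wdfy4 (in mature DCs) and erythroid H2-Q10, Tap1, Tap2 and Wdfy4 did not reach this. Counting intervals were exact Poisson or, for ratios, came from 1000 Poisson draws, and shares of cells have exact binomial (Clopper-Pearson) intervals at 95%, while a share of 0 is given the limit of 3 cells of the total. With 1 library per group no test was made. Genes were named by a fixed rule, all 10 members and the 3 highest and 3 lowest expressed genes of the lists in each comparison, and the other genes named as past 1.5-fold, as loading factors or proteasome subunits, or as cluster markers were chosen after their values were seen. The log2 ratios, their counting intervals and the 1.5-fold call were run on simulated Poisson sums with known fold changes. These sums held no variation between cells or animals, so the intervals could not be tested against it. Filtering, clustering, naming and thinning were not simulated. The closing section gives the effect of other filters, scalings, pseudocounts, cluster settings and cell names. Some results on genes outside the 10 are not reported here.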

Additional observations from a re-analysis of the deposited data

How the results depend on the processing

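No paired analysis was possible because there was 1 sample per group, and for the same reason no library could be left out. The median log2 ratio over the 10 genes kept its direction in all 6 comparisons and alternatives except in cDC1 and cDC2 between the libraries, where it lay near 0. Of 81 recomputed medians, 60 moved by less than the counting interval and 21 by more. For cDC1 over cDC2 in the wild-type library it was 0.497 with each cell named by its own marker UMIs, 0.501 with the unnamed sub-clusters nearest to cDC2 added to cDC2, 0.610 with median-of-ratios scaling and 0.572 over expressed members alone. In the SCD library it was 0.700 without called doublets, 0.687 with cells named by their own markers and 0.676 with median-of-ratios scaling. For the SCD over the wild-type library in neutrophils it was -0.653 with at least 1000 genes per cell, -0.658 with a pseudocount of 20 CPM, -0.401 with median-of-ratios scaling and -0.841 as a mean of per-cell CPM. In monocytes it was -0.622 with no upper limit on genes per cell, -0.394 with the pseudocount of 20 CPM, -0.391 with median-of-ratios scaling and -0.349 after the share estimated from Cd74 was subtracted. In cDC1 it was -0.065 with at least 1000 genes per cell and 0.085 with no upper limit. In cDC2 it was -0.202 with at least 1000 genes per cell, 0.034 without called doublets (1 of the 230 SCD cells, with 33 SCD cells named cDC2 after clustering anew), -0.226 with cells named by their own markers and -0.151 with the unnamed sub-clusters added. The cause of these shifts was not tested.

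Of 1290 recomputed ratios of single genes, early B cells included, 1081 stayed within the counting interval without a call turning and 7 values of ratios past 1.5-fold changed sign. Of these, 4 were Psmb8 in erythroid cells, at 0.62 on 41 and 30 UMIs, which became -0.356 with no upper limit on genes per cell, -0.087 without called doublets, -0.703 at a Leiden resolution of 2 and -0.103 with median-of-ratios scaling. The others were H2-Q10 in mature DCs (0.023 at a Leiden resolution of 2), erythroid Tap2 (0.597 with cells named by their own markers) and erythroid Wdfy4 (0.314 as a mean of per-cell CPM). Erythroid cells with at least 1000 genes were not run, since 0 such cells were left in the smaller class. Of 360 shares of cells recomputed without thinning or at 2000 UMIs, 311 moved by more than their interval. Leaving out shared barcodes, leaving out the dividing cDC2 sub-cluster (over 50% of cells with an Mki67 UMI), subtracting the Cd74 share and adding the unnamed sub-clusters to cDC2 were alternatives chosen after seeing the data. Depth limits H2-Q10 outside neutrophils, where it had 2 to 203 UMIs per class and library.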

Other observations

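Cells with over 5000 genes, 517 in the wild-type and 1436 in the SCD library, were left out of the values above. Summed over these cells, B2m reached 970 CPM (wild-type) and 857 CPM (SCD), a log2 ratio of -0.18, H2-K1 at 442 and 368 CPM (-0.26), H2-D1 at 438 and 477 CPM (0.12) and Psmb8 at 203 and 237 CPM (0.22). H2-Q10 was at 5.61 and 1.90 CPM (-0.62). Wdfy4 was at 49.1 and 24.1 CPM (-0.90). Their cell types were not compared.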
